A study of Mus musculus with 47 samples.

Results

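The inguinal white adipose tissue (iWAT) of 24 female mice was divided by the RNA level of lymphocyte genes, taken as markers of lymph node. How much node each fat pad held was not measured. For each array the deposited log10 ratio was averaged over all non-control spots named Ltb, Cd8b1 or Cd79b, and an average above 0 placed the pad in the rich class while an average of 0 or less placed it in the poor class. By this rule 14 pads were rich and 10 were poor, out of 24 female and 47 arrays in all. The female pads came from 4 groups of 6 mice. WT mice were the F1 of a mixed C57/BL6;129Svj background, and Bcmo1-null mice were C57/BL6;129Svj-Bcmo1tm1Dnp animals, which lack β-carotene monooxygenase 1 in every tissue from conception. Each genotype ate either a control diet without β-carotene (BC) or the same diet with 150 mg BC/kg, in both cases with 1500 IU vitamin A/kg, for 14 weeks from 5 weeks of age until sacrifice at 19 weeks. The 23 male arrays came from the same 4 genotype and diet combinations, with 5 WT males on the BC diet and 6 mice in each of the others. Every array compared 1 mouse, labelled with Cy5, against a common pool of all samples labelled with Cy3, so a log2 ratio of 0 is the level of the pool, and no dyes were swapped. The dorsolumbar and inguinal parts of the depot were taken as 1 whole tissue. In each group the paper describes, 1 entire lobule of some animals, but not of all, was kept back for histology. The labels used here do not say from which animals.

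The inguinal lymph node lies buried inside this fat pad. It holds B cells in follicles drawn together by the chemokine Cxcl13 and T cells in a zone laid out by stromal cells that make Ccl19 and Ccl21. Lymphocytes enter it from the blood across high endothelial venules, whose endothelium decorates mucins such as Glycam1 with a sugar that lymphocytes grip, and lymph drains through sinuses lined by macrophages. Of the 3 genes behind the rule, Ltb encodes lymphotoxin β, which lymphocytes use to instruct that stroma, Cd8b1 the β chain of the CD8 co-receptor of cytotoxic T cells, and Cd79b a signalling chain of the B cell antigen receptor.

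Of the adipocyte markers examined, 24 of 24, among them Adipoq, Plin1 and Fabp4, passed the filter on dim probes (mean Cy5 and Cy3 signals of at least 2 times the mean local background). So did 13 of 13 skeletal muscle genes, 12 of 12 macrophage genes and 20811 of all 41174 probes, so passing does not identify the tissue. The median Cy5 signal of an array lay between 130 and 264.5 in the rich class and between 139 and 228 in the poor class, and 22104 to 28794 against 19193 to 28332 probes were well above background. The 1 probe for the targeted gene Bcmo1 could not check the genotype labels, since it was well above background on 4 of 12 WT and 5 of 12 Bcmo1-null female arrays and did not pass the filter. Bulk RNA cannot tell fewer cells of a type from less RNA per cell, and this holds for all values given here.

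The 250 bases before the RefSeq start site (GRCm38.p6) are shown for 4 genes that anchor the comparison: Ltb from the rule, Glycam1 with the widest difference of all genes, and the neighbours Cd3d and Cd3e, whose products belong to the same T cell receptor complex and whose probes behaved differently. The windows are chr17:35194257-35194506 on the plus strand for Ltb, chr15:103565082-103565331 on the minus strand for Glycam1, chr9:44981536-44981785 on the plus strand for Cd3d and chr9:45009612-45009861 on the minus strand for Cd3e. Capitals mark any match, on either strand, to an NF-kB core (GGACTTTCC), an ETS core (AGGAAGT) or the octamer (ATGCAAAT), and no matches overlapped.
Ltb: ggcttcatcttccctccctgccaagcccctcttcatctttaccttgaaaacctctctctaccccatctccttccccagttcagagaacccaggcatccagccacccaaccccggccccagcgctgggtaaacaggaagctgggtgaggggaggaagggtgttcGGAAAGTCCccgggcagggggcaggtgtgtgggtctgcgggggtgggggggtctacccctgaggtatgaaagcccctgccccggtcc
Glycam1: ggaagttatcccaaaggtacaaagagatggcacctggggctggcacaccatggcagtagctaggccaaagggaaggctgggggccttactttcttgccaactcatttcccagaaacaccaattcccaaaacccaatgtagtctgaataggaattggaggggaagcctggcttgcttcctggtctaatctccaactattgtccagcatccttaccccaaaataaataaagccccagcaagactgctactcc
Cd3d: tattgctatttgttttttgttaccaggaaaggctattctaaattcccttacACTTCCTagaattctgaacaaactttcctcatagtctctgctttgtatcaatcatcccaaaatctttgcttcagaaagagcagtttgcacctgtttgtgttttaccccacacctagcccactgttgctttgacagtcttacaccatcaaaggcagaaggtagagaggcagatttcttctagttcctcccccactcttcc
Cd3e: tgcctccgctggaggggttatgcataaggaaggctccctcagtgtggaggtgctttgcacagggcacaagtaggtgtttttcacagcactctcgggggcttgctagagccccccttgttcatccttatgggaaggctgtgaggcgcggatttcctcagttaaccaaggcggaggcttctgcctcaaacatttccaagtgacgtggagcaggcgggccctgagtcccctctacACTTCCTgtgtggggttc

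The Ltb window held 1 NF-kB match on the minus strand, starting 87 bases before the start site. Cd3d and Cd3e each held 1 ETS match on the minus strand, at 199 and 18 bases before the start, and the Glycam1 window held none of these letters. Among 32851 RefSeq windows of this length the NF-kB sequence occurred in 0.283%, the ETS core in 7.69% and the octamer in 1.6%. Counted per gene, 8.8% of 27025 genes held the ETS core. Of the T lymphocyte markers 6 of 13 with a window held it (Cd3e, Cd3d, Cd5, Lck, Il7r and Cd247), and of the B lymphocyte markers 3 of 15. It was held by 0 of 9 genes of lymph node stroma and chemokines, 1 of 13 of the TNF family and 0 of 17 adipocyte markers. These matches describe the letters of the windows and are neither shown to be bound nor tested against the array values.

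The rule value, on the log10 scale of the deposited ratios, ran from 0.019 to 0.235 with a median of 0.0648 in the rich class and from -0.985 to -0.00677 with a median of -0.748 in the poor class. Rich pads thus sat slightly above the pool and close together, whereas poor pads were spread widely. The widest gap among the female values lay between -0.572 and -0.213, and not at the threshold of 0. The poor pads just inside the threshold were replicate 4 of the Bcmo1-null BC diet group at -0.00677 and replicate 4 of the WT control group at -0.213. The rich pads nearest to it were replicate 5 of the Bcmo1-null BC diet group at 0.019 and replicate 6 of the WT control group at 0.0201. For the B lymphocyte markers described next, the median log2 ratio over the list in these 4 pads was -0.08, -0.68, 0.08 and -0.03, in the same order. WT control replicate 4 was thus the lowest of the 4.

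**Figure D1:**
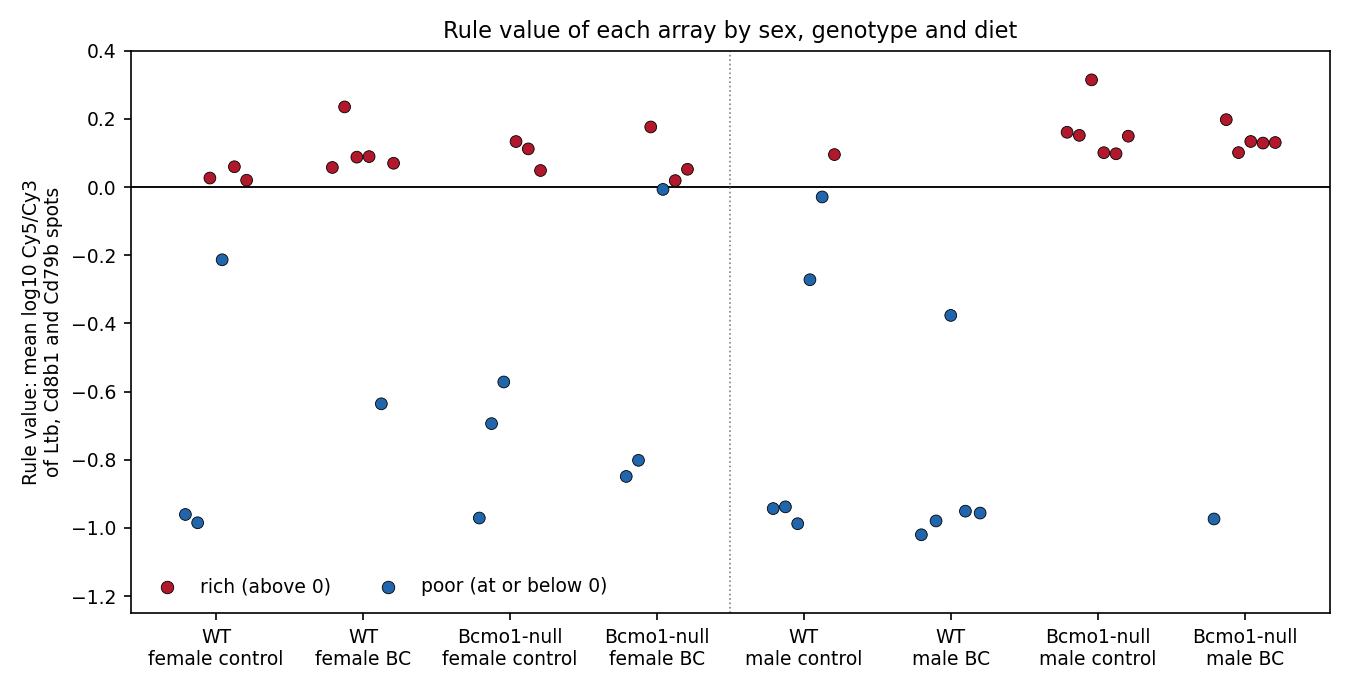
Mean deposited log10 ratio (Cy5 over Cy3) of the spots named Ltb, Cd8b1 or Cd79b on each of the 47 arrays, by group of genotype, diet and sex; each point is 1 mouse and the line at 0 is the threshold. The 14 rich female pads lie between 0.019 and 0.235 and the 10 poor ones between -0.985 and -0.00677, with 2 poor pads above the widest gap.

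The 4 spots behind the rule did not contribute alike. After loess normalization the log2 difference between rich and poor pads, adjusted for genotype and diet group, was 2.96 (SE 0.33) for Ltb, 3.25 (SE 0.39) for the Cd8b1 probe on chromosome 6 and 3.12 (SE 0.38) for Cd79b. The fourth spot also carries the name Cd8b1, but the file annotation places it at chr5:115404420-115404479 (mm8), away from the Cd8b1 probe at chr6:71266583-71266641, and its difference was -0.06 (SE 0.06). Leaving it out moved 0 of the 24 pads to the other class.

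Rich and poor pads were compared across all genes by limma with the 4 genotype and diet groups as covariates. The 3 genes used by the rule come from the same arrays, so the differences that follow are a description of 2 classes chosen from the data, and the counts of adjusted p under 0.05 are given as sizes and not as tests. Of 20811 probes 1767 (8.49%) reached that level, 1328 (6.38%) higher and 439 (2.11%) lower in rich pads. Read at the brightest probe of each gene, 923 of 13435 genes (6.87%) were higher and 338 (2.52%) lower. The higher genes had a median log2 difference of 0.61, with 255 above 1, 47 above 2 and 12 above 3, whereas the lower genes had a median of -0.32 and only 1 lay below -1. In 121 genes (0.901%), or 163 probes (0.783%), the lowest rich pad exceeded the highest poor pad, and 0 probes (0%) were separated the other way.

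All 18 B lymphocyte markers that passed the filter were higher in rich pads (background 6.87%), with a median difference of 1.64 against -0.02 over all genes, while Cd79a and Blk did not pass the filter. Ms4a1, which encodes the B cell surface protein CD20, had log2 ratios of -0.11 to 0.65 (median 0.33) in rich pads and of -5.71 to -0.26 (median -4.29) in poor pads, a difference of 4.10 (SE 0.56) or 17.1-fold. The classes did not overlap, and the poor pads spanned a range many times that of the rich pads. Tnfrsf13c, the receptor for the survival factor BAFF, ran from -0.17 to 0.85 (median 0.26) in rich and from -4.27 to -0.18 (median -3.21) in poor pads, a difference of 3.21 (SE 0.38), again without overlap. It was well above background on 14 of 14 rich but 6 of 10 poor arrays.

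Pou2af1, a transcriptional coactivator of B cells, ran from -0.32 to 0.97 (median 0.22) and from -4.10 to -0.22 (median -3.34), a difference of 3.17 (SE 0.38). Its classes overlapped narrowly, as did those of Fcmr, the IgM Fc receptor, which differed by 3.19 (SE 0.37). The inhibitory receptor Cd22 differed by 2.03 and was well above background on 5 of 10 poor arrays, and the complement receptor Cr2 and the transcription factor Pax5, at 1.71 and 1.25, were so on 3 of 10 each. The smallest difference of the list was 0.80 for Cd37, a tetraspanin that other leukocytes also carry.

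Of the T lymphocyte markers that passed the filter 16 of 18 were higher in rich pads, with a median difference of 1.68. In 8 of the 18 the classes did not overlap. Cd3d, a chain of the T cell receptor complex, ran from 0.13 to 1.16 (median 0.53) in rich and from -3.47 to 0.03 (median -2.63) in poor pads, a difference of 2.79 (SE 0.35) without overlap. Cd3g, another chain of that complex, differed by 2.45 (SE 0.30). The kinase Lck, which starts signalling from the receptor, ran from 0.21 to 1.28 (median 0.67) and from -2.89 to 0.17 (median -2.07), a difference of 2.48 (SE 0.29), and Cd8a, the partner of Cd8b1, differed by 1.60 (SE 0.20).

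Cd3e was among the T lymphocyte markers that did not reach the level. Its probe ran from -0.16 to 0.21 (median 0.05) in rich and from -0.19 to 0.01 (median -0.12) in poor pads, a difference of 0.14 (SE 0.05), although Cd3e is part of the same complex as Cd3d.

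Genes by which naive lymphocytes find and stay in lymph nodes were among the wide differences. Of 10 such genes that passed the filter, 7 were higher and 0 lower. The chemokine receptor Ccr7, which steers cells towards Ccl19 and Ccl21, ran from -0.30 to 0.97 (median 0.28) in rich and from -3.13 to -0.17 (median -2.24) in poor pads, a difference of 2.30 (SE 0.28). The T cell transcription factor Lef1 differed by 2.98 (SE 0.37), without overlap, and was well above background on 6 of 10 poor arrays. The transcription factor Klf2 and the egress receptor S1pr1, which are also made by endothelium, differed by 0.86 (SE 0.34) and 0.18 (SE 0.14) and did not reach the level.

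Genes of cytotoxic effector cells were divided. The chemokine Ccl5 differed by 2.44 (SE 0.27) and the granule protein Nkg7 by 1.40 (SE 0.17), both without overlap, and perforin (Prf1) by 0.46 (SE 0.08). The granzymes Gzma and Gzmb differed by 0.23 (SE 0.13) and -0.02 (SE 0.10). Over the list 5 of 9 genes were higher, with a median of 0.46. Among 5 genes of regulatory or activated T cells 4 were higher, such as Icos (1.87, SE 0.24) and Tnfrsf4 (1.34, SE 0.17).

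**Figure D2:**
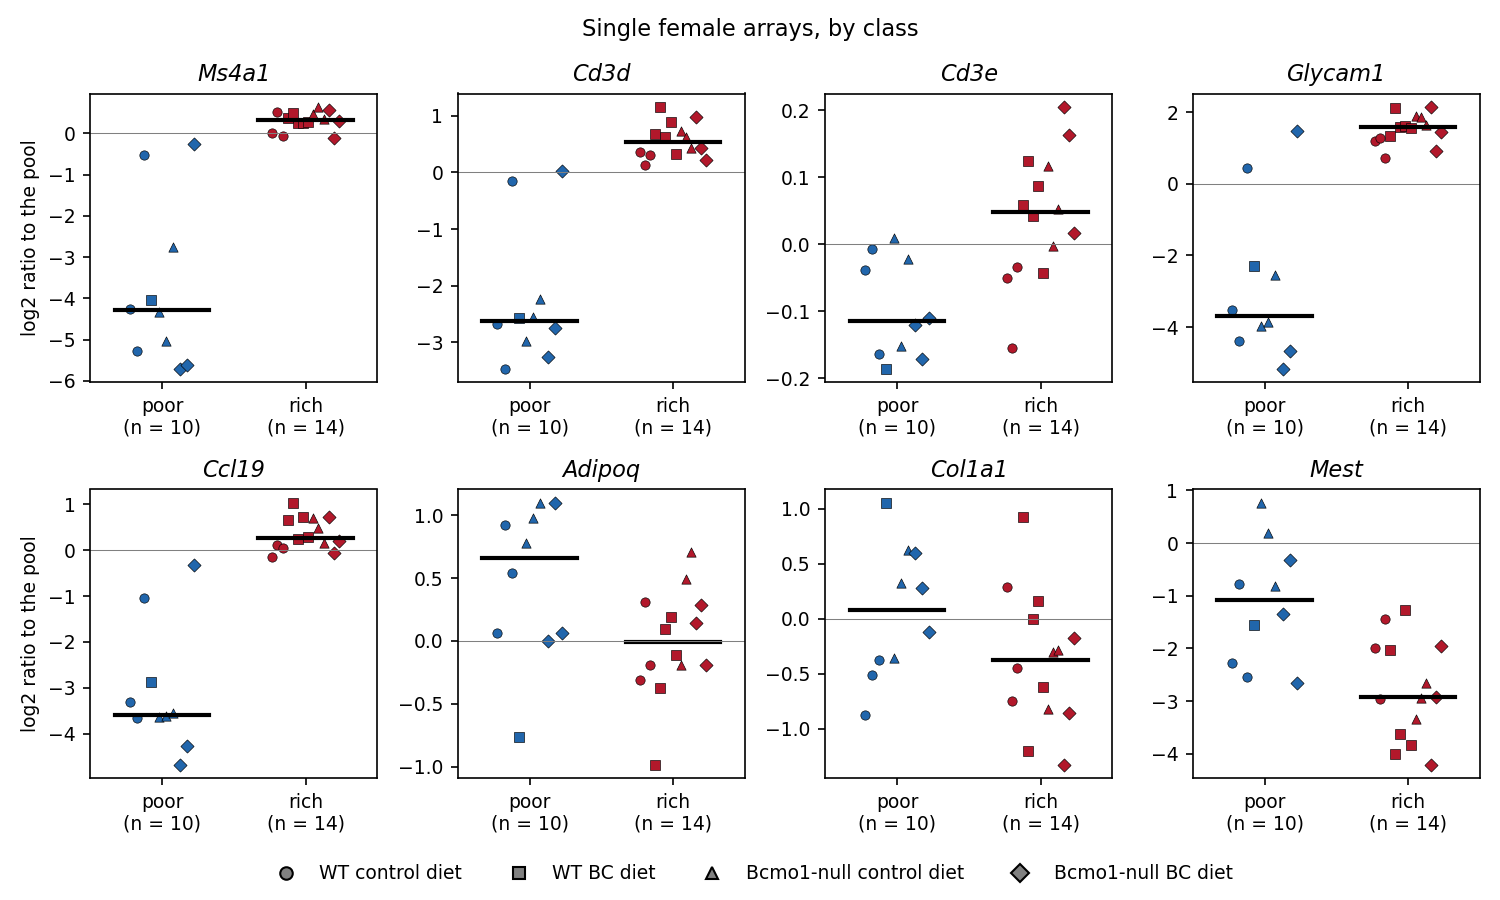
Log2 ratio to the Cy3 pool, after loess, of 8 genes in each of the 14 rich and 10 poor female pads; each point is 1 mouse, its shape gives genotype and diet, and bars mark medians. Ms4a1, Cd3d and Ccl19 do not overlap between classes, Glycam1 overlaps through 1 poor pad, and Cd3e, Adipoq, Col1a1 and Mest overlap, with the Cd3e axis spanning only -0.19 to 0.21.

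Some genes tied to the structural cells of the node were also higher in rich pads. Glycam1 had the largest difference of any gene, running from 0.72 to 2.15 (median 1.57) in rich and from -5.17 to 1.48 (median -3.68) in poor pads, 4.29 (SE 0.63) or 19.6-fold. The classes overlapped through 1 poor pad, replicate 4 of the Bcmo1-null BC diet group, and Glycam1 is also known as a milk protein of the mammary gland, which shares this depot. The fucosyltransferase Fut7 and the glycosyltransferase Gcnt1, enzymes that build that sugar, differed by 1.36 (SE 0.18) and 1.16 (SE 0.25). These were the 3 venule genes that passed the filter, and Chst4, Madcam1 and Chst2 did not.

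Of 11 genes of lymph node stroma and its chemokines 6 were higher. Ccl19 ran from -0.15 to 1.04 (median 0.27) in rich and from -4.68 to -0.33 (median -3.58) in poor pads, a difference of 3.38 (SE 0.39) or 10.4-fold without overlap. The probe for Ccl21, whose gene copies are too alike to be told apart, differed by 2.34 (SE 0.26) and Cxcl13 by 2.05 (SE 0.34), each with overlap. The receptor Ltbr, through which lymphotoxin β acts on stroma, differed by -0.16, and the reticular cell marker Pdpn by 0.04. Among lymphatic endothelial genes Prox1 (0.41), Mmrn1 (0.66) and Stab2 (0.65) were higher, and Lyve1 (0.36, SE 0.40) and Reln (-0.56) did not reach the level.

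Among genes of antigen-presenting cells, all 10 MHC class II genes were higher, with a median of 0.84. H2-Oa, whose product tunes peptide loading mainly in B cells, ran from 0.16 to 0.72 (median 0.35) against -2.44 to 0.24 (median -1.55), a difference of 1.80 (SE 0.22), whereas H2-Aa, carried by all classical antigen-presenting cells, differed by 0.86 (SE 0.20). The dendritic cell genes Cd83 (1.47, SE 0.19) and Batf3 (0.59) were higher among 5 of 6. Marco, a scavenger receptor of macrophages in lymph node sinuses and medulla, ran from -0.14 to 1.03 (median 0.40) against -4.88 to 0.18 (median -3.85), a difference of 3.50 (SE 0.50) or 11.3-fold with overlap at 1 end of the poor range.

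Timd4, a receptor for dying cells on resident macrophages, differed by 1.50 (SE 0.25), while Siglec1 (0.52) and Cd163 (-0.02) of the same list did not reach the level. Macrophage genes of any tissue gave 1 of 12 higher, Lyz2 at 1.09 (SE 0.28), with Cd68 at 0.39 and Adgre1 at 0.18. Among plasma cell genes Jchain (2.21, SE 0.31) and Mzb1 (2.08, SE 0.26) were higher, whereas Sdc1, which epithelium also makes, was at -0.53 (SE 0.24). None of the 3 germinal centre genes reached the level, and the differences had a median of 0.02.

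Signalling genes of the same cells were examined as pathways. In antigen receptor signalling 18 of 20 genes were higher, with a median of 1.23, among them the receptor phosphatase Ptprc (2.20) and the kinases Syk (0.77) and Lyn (0.27), while Bcl10 (0.12) did not reach the level. Of 16 lymphoid transcription factors 13 were higher, led by Pou2af1, Lef1 and Spib (1.89), with Ebf1 (-0.11), Gata3 (-0.40) and Myb (-0.01) the exceptions. Ebf1 also acts in adipocytes. In the TNF family, to which Ltb belongs, 11 of 15 genes were higher. Lta, the partner of Ltb, differed by 1.51 (SE 0.23) and was well above background on 4 of 10 poor arrays, Cd40 differed by 1.03 and Tnfrsf13b by 1.27, while the downstream NF-kB subunits Relb (0.53) and Nfkb2 (0.34) differed less and Tnfrsf1a (-0.02) did not reach the level.

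**Figure D3:**
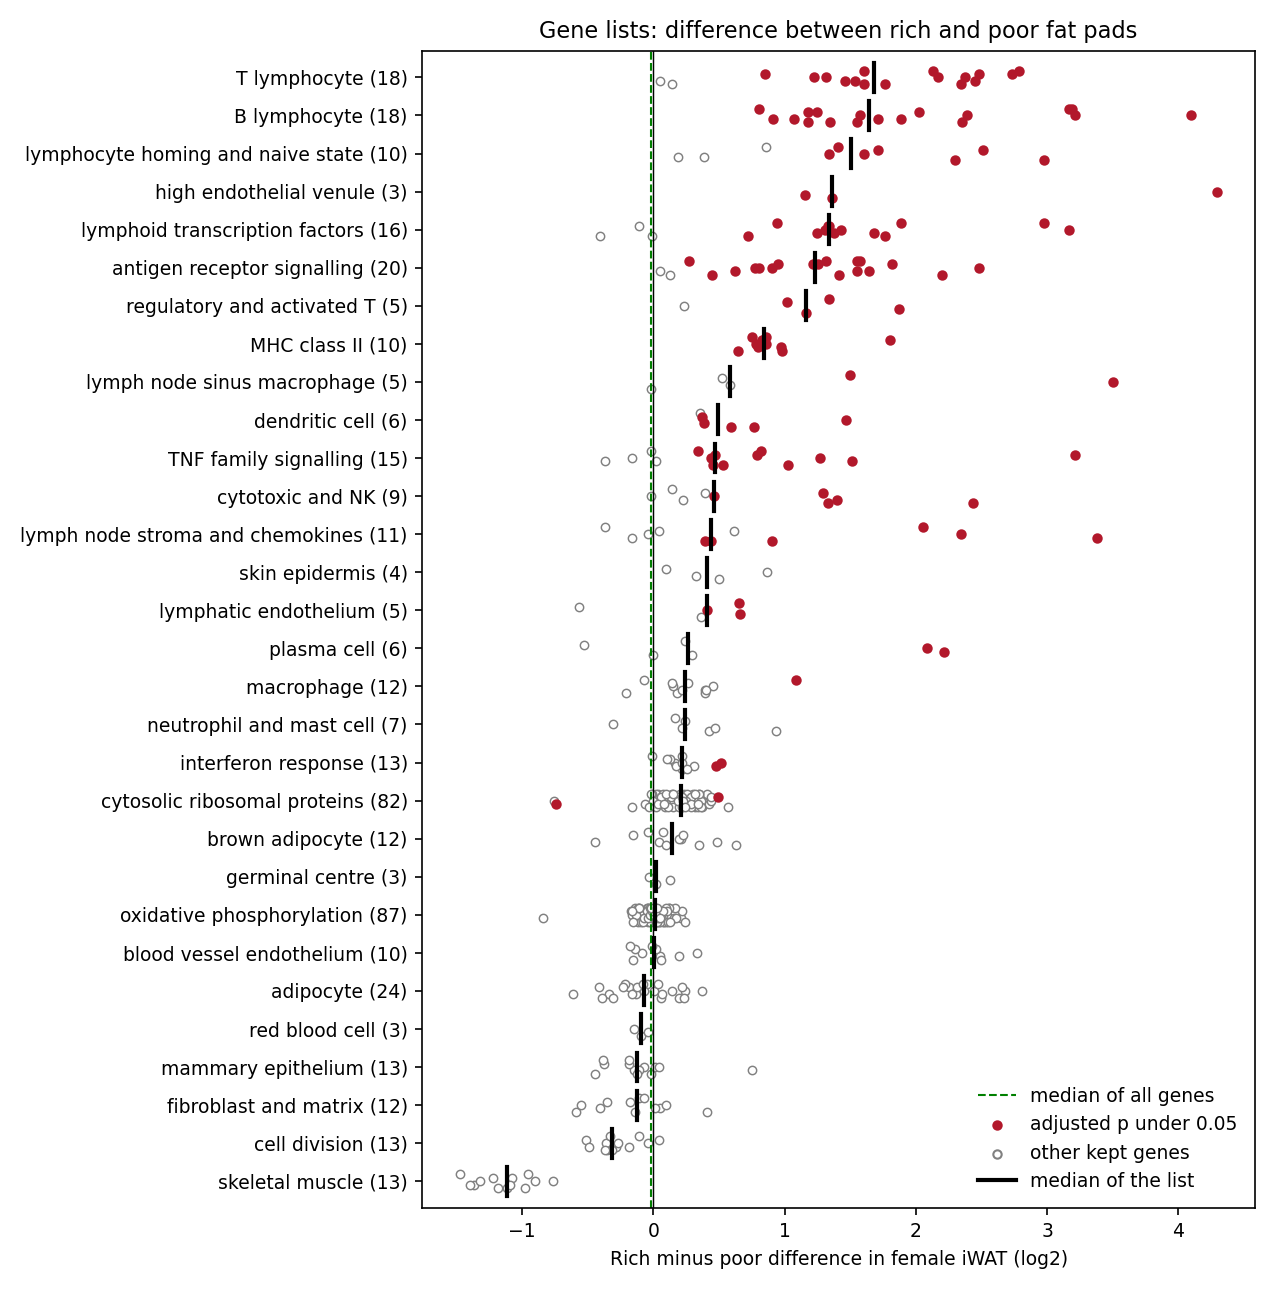
Difference between rich and poor female pads (log2, fitted with genotype and diet group) for the members of each gene list; each point is 1 gene, filled where the adjusted p was under 0.05, black bars are list medians and the dashed line is the median of all genes. Lymphocyte, homing and venule lists lie to the right of 0, adipocyte, oxidative phosphorylation and endothelium lists around it, and the skeletal muscle list to the left with no filled point.

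Of 24 adipocyte markers 0 reached the level, against 9.39% of all genes, and the median difference was -0.07. Adipoq, which encodes adiponectin, ran from -0.99 to 0.71 (median -0.01) in rich and from -0.77 to 1.10 (median 0.66) in poor pads, a difference of -0.34 (SE 0.18) with broad overlap. On control diet the median log2 ratio over the list was lower in every rich than in every poor pad of the same genotype. It was -0.23 to -0.19 against 0.05 to 0.48 in WT and -0.20 to -0.07 against 0.04 to 0.40 in Bcmo1-null mice (3 pads each). On BC diet it was -0.68 to -0.09 in 5 rich WT pads against -1.01 in the poor one, and -0.11 to 0.05 against -0.26 to 0.15 in Bcmo1-null mice. Leptin (Lep) was at -0.41 (SE 0.26), the natriuretic peptide clearance receptor Npr3 at -0.61 (SE 0.30) and the lipid droplet coat protein Plin1 at -0.07. Brown adipocyte genes (12, median 0.15), oxidative phosphorylation (87, median 0.01), blood vessel endothelium (10, median 0.00), fibroblast and matrix genes (12, median -0.13) and mammary epithelium (13, median -0.12) also gave 0 in either direction. Of 82 cytosolic ribosomal protein genes 1 was higher, Rps27 at 0.49 (SE 0.15), and 1 lower, Rpl39l at -0.74 (SE 0.23), with a median of 0.21. Interferon response genes gave 2 of 13 higher, Usp18 among them.

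Skeletal muscle genes pointed towards the poor class without reaching the level. All 13 had differences between -1.47 and -0.76 with a median of -1.11, and 0 were called. The median log2 ratio over the list ran from -3.96 to -0.59 (median of the pads -3.00) in rich and from -3.65 to 2.14 (median of the pads -2.59) in poor pads. The highest values belonged to 2 poor pads, replicate 1 of the Bcmo1-null control group (1.64) and replicate 1 of the Bcmo1-null BC diet group (2.14). Without them the median rich minus poor difference of the list was -0.35 and 1460 probes in place of 1767 reached the level. The part of muscle RNA in the differences between classes was not tested further.

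Genes lower in rich pads were fewer and smaller. Mest, an imprinted gene that marks expanding adipocytes, ran from -4.22 to -1.28 (median -2.93) in rich and from -2.66 to 0.77 (median -1.08) in poor pads, a difference of -1.59 (SE 0.43), with overlap. It was the only gene past a log2 difference of -1 among those that reached the level. Next were the transcriptional regulator Id4 and Shisa2, both at -1.0, Pttg1 (-0.96), Samd5 (-0.85), the protease Adamts18 (-0.85), 3100002J23Rik (-0.81), the mesothelial protein Msln (-0.79), the neurotrophin Bdnf (-0.78) and Tox3 (-0.76), all with overlapping classes. Mest no longer reached the level with slide (-1.03) or replicate number (-1.41) as a block, or without the 2 muscle-rich arrays (-1.39). Others were less firm: leaving out 1 array ended the call of 3100002J23Rik for 14, of Adamts18 for 13, of Msln for 6 and of Shisa2 for 5 of the 24 arrays, and of Id4 and Tox3 for 1 each.

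Of the 12 slides 5 held female pads of both classes. Within these the mean rich minus poor difference of Ms4a1 was 0.49 to 5.78 and above 0 on 5 of 5 slides, as was that of Cd3d (0.42 to 4.63) and Ccl19 (0.67 to 4.70). Glycam1 ranged from -0.08 to 6.49 and was above 0 on 4 of 5, while Adipoq (-1.30 to 0.06) and Mest (-3.22 to 0.81) were above 0 on 1 of 5. The size of the differences also depended on the signals used. The median of the B lymphocyte list was 1.64 with the background offset of 50 and 3.18 on the processed signals of the scanner software, with 18 of 18 genes called in both.

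The rule used no label, so whether the class followed the labelled groups could be tested. Rich pads numbered 3 of 6 in WT mice on control diet, 5 of 6 in WT mice on BC diet, and 3 of 6 in each Bcmo1-null group, a difference that did not pass the test (two-sided Fisher's exact test, p = 0.621). By genotype 8 of 12 WT and 6 of 12 Bcmo1-null pads were rich (Fisher's exact test, p = 0.680), and by diet 8 of 12 on BC and 6 of 12 on control diet (p = 0.680). The mean rule value of WT females was -0.016 on BC and -0.342 on control diet (n = 6 each, two-sided exact permutation test, p = 0.186, adjusted over 4 comparisons 0.485), and in Bcmo1-null females it was -0.235 and -0.324 (exact permutation p = 0.829, adjusted 0.926). Between genotypes the test did not pass on the control diet (exact permutation p = 0.926, adjusted 0.926) or on the BC diet (exact permutation p = 0.242, adjusted 0.485). By the replicate numbers of the labels, 3, 3, 1, 2, 1 and 0 of 4 female pads with numbers 1 to 6 were poor, and the labels give these numbers no meaning.

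The gap between rich and poor pads was also compared between genotypes and between diets, as an interaction in limma. For genotype 0 of 20811 probes (0%) passed an adjusted p of 0.05 and 259 (1.24%) had an unadjusted p under 0.01. For diet the counts were 0 (0%) and 947 (4.55%). No B or T lymphocyte marker was among either set at that unadjusted level, and Ms4a1 gave 0.51 (Bcmo1-null minus WT, unadjusted p = 0.662, limma) and 0.18 (BC minus control, unadjusted p = 0.873, limma). For diet, 7 of 13 cell division genes were below 0.01 before adjustment, with a median of -1.01, among them Mki67 (-1.83) and Cdk1 (-1.10). Of 24 adipocyte genes 3 were, Dgat2 (1.56), Slc2a4 (1.71) and Aqp7 (0.77), with a list median of 0.55. The WT BC diet group has 1 poor pad, replicate 5. Its median log2 ratio over the cell division list, 2.10, was the highest of the poor class. Without that pad 393 probes were below 0.01 for diet.

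The diet groups of WT mice were unequal in class: WT mice on BC had 5 rich pads and WT mice on control diet 3. In WT females 1872 of 20811 probes (9%) changed with BC at an unadjusted p under 0.01 without the class in the fit and 1536 (7.38%) with it, of which 1324 were shared, 548 were found only without and 212 only with the class. At an adjusted p under 0.05 the counts were 232 (1.11%) and 0 (0%). Neither count was stable, since without WT control replicate 3 they were 1644 and 796, and on the processed signals the first was 0. Most changes were downwards on BC, 74.0% without and 70.8% with the class. The share of upward changes, 26.0% and 29.2%, was 7.59% and 12.1% with median centring and 9.17% and 25.1% without normalization. In Bcmo1-null females, with 3 rich and 3 poor pads on each diet, 77 probes (0.37%) and 88 (0.423%) were below 0.01, 71 of them shared, and 0 passed the adjustment either way.

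The class was drawn from lymphocyte genes, so fitting it removes differences that run with those genes, and the lymph node lists without and with it are a description. Of the B and T lymphocyte, homing, venule and MHC class II genes 0 had an unadjusted p under 0.01 for diet in WT females in either fit. The median diet difference (BC minus control) of the T lymphocyte list was 0.61 without and -0.02 with the class, that of the B lymphocyte list 0.38 and -0.21, of the homing genes 0.69 and 0.08, of the venule genes 0.52 and 0.06 and of MHC class II 0.49 and 0.19. Ms4a1 changed by 1.19 (SE 1.36) without and by -0.17 (SE 0.77) with the class, Cd3d by 1.10 (SE 0.91) and 0.17 (SE 0.48) and Ccl19 by 1.35 (SE 1.08) and 0.22 (SE 0.54), so that the standard error fell along with the difference. The class took up a median of 6.37% of the spread within groups over all probes, 71.8% over the B lymphocyte markers and 74.5% over the T lymphocyte markers, and more than 50% for 974 probes. The shares of the lymphocyte markers follow from the rule and are a description.

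The median diet difference of the adipocyte genes in WT females was -0.53 without and -0.46 with the class, and 8 of 24 were lower at an unadjusted p under 0.01 in both fits (background 7.06% and 5.51% of genes lower). Npr3 ran from -1.11 to 0.60 (median -0.84) in WT females on control diet and from -3.04 to -1.70 (median -2.55) on BC, without overlap, and changed by -1.82 (SE 0.43, limma adjusted p = 0.0451) without and by -1.62 (SE 0.41, adjusted p = 0.0843) with the class. Rbp4, which carries retinol, ran from -0.09 to 1.09 (median 0.05) and from -1.43 to -0.59 (median -0.78), also without overlap, and changed by -1.15 (SE 0.28, limma adjusted p = 0.049) and by -1.04 (SE 0.28, adjusted p = 0.0935). Of the genes tied to blood cells, Icam1, an adhesion molecule of leukocytes and endothelium, changed by 0.57 (SE 0.23, unadjusted p = 0.0218, limma) without and by 0.35 (SE 0.14, unadjusted p = 0.0216) with the class, and the chemokine receptor Cxcr4 by 0.55 (SE 0.23) and 0.42 (SE 0.21). The cell division list went from 0.69 to 0.82 (4 and 6 of 13 higher, background 2.28% and 2.31%) and the skeletal muscle list from 0.84 to 1.22. Ribosomal protein genes went from 0.47 with 26 of 82 higher to 0.41 with 18 of 82.

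**Figure D4:**
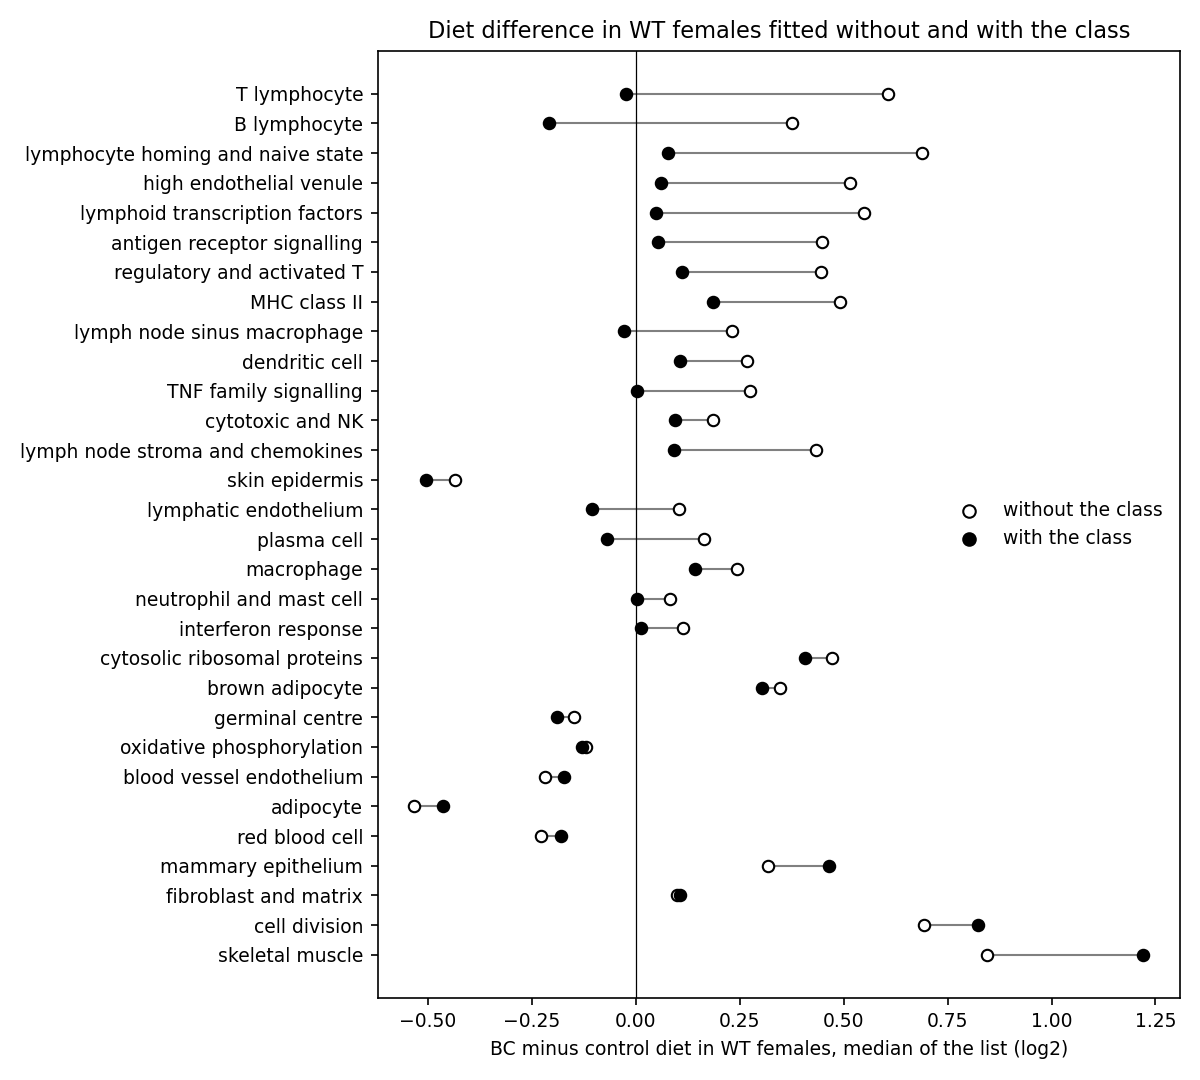
Median diet difference (BC minus control, log2) of each gene list in WT females, fitted without (open circles) and with (filled circles) the class; each pair of circles joined by a line is 1 list. The class comes from lymphocyte genes and takes up their differences by construction: the T lymphocyte, homing and venule lists lie near 0 with it, the B lymphocyte list goes from 0.38 to -0.21, and the adipocyte list from -0.53 to -0.46.

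The same rule was applied to the 23 male arrays, which had no part in the female classes. Here the class followed genotype. Rich pads numbered 6 of 6 and 5 of 6 in Bcmo1-null males on control and BC diet but 1 of 6 and 0 of 5 in WT males (Fisher's exact test over the 4 groups, p = 0.000322, and 11 of 12 against 1 of 11 by genotype, p = 0.000107), whereas diet made no detectable difference (p = 0.684). The mean rule value on control diet was 0.163 in Bcmo1-null and -0.512 in WT males (n = 6 each, exact permutation test, p = 0.00216, adjusted over 4 comparisons 0.00866). On BC diet it was -0.0468 and -0.857 (n = 6 and 5, exact permutation test, p = 0.0195, adjusted 0.039). The gap on BC is narrowed by 1 Bcmo1-null male, replicate 1, at -0.974. The difference between the sexes was not tested.

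Ms4a1 ran from 0.19 to 1.99 (median 0.65) in the 12 rich male pads and from -5.78 to -0.66 (median -4.92) in the 11 poor ones, and Cd3d from 0.20 to 1.42 (median 0.59) and from -3.82 to -0.02 (median -3.43). Both resembled the female classes in range and did not overlap. Glycam1 did so at another level, from -2.44 to -1.28 (median -2.0) in rich and from -4.61 to -3.26 (median -4.38) in poor males, with rich males below the lowest rich female pad.

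Between genotypes, 9510 of 20437 probes (46.5%) differed in males at an adjusted p under 0.05 (limma) without the class and 386 (1.89%) with it, 377 of them shared. Of the probes higher in rich females 1312 were tested in males. Of these 1210 were higher in Bcmo1-null males without the class, and 10 reached the level with it. Over all 20437 male probes 5163 were higher in Bcmo1-null males without the class. With the class 386 reached the level, 192 of them higher. In Bcmo1-null males 18 of 18 B lymphocyte markers were higher (background 24.8% of genes), with a median of 1.79, and the T lymphocyte list had a median of 2.33. In females 1330 of 20811 probes (6.39%) differed between genotypes without and 1488 (7.15%) with the class, and the contrast without the class gave 0 B lymphocyte markers higher (background 3.6%), with medians of -0.25 and -0.19. Ms4a1 was 4.05 higher in Bcmo1-null males (SE 0.74, limma adjusted p = 0.000139), and 0.16 (SE 0.95, adjusted p = 0.961) with the class in the fit.

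Class and genotype can hardly be told apart in males, since a single WT pad was rich and a single Bcmo1-null pad poor. The rich minus poor difference fitted with the 4 male groups reached the level in 905 of 20437 probes (4.43%), but in 2 once the rich WT control replicate 6 was left out, and in 0 with slide or replicate number as a block. As background to the list counts that follow, 24.8% of all genes were higher in Bcmo1-null than in WT males. In Bcmo1-null females 3.6% were higher and 2.81% lower. Between rich and poor male pads 573 of 13169 genes were higher in rich. Of 82 ribosomal protein genes 73 were higher in Bcmo1-null than in WT males (median 0.52) and 38 in rich than in poor male pads (median 0.57). In Bcmo1-null females 1 of them was higher and 2 were lower. Of 13 cell division genes 12 were higher in Bcmo1-null males (median 0.63) and 0 in Bcmo1-null females. Interferon response genes were higher in 13 of 13 in Bcmo1-null males and in 12 of 13 in Bcmo1-null females, with medians of 0.76 and 0.83, while brown adipocyte genes were higher in 7 of 12 in males (median 0.63, with a rich minus poor median of 0.63 in males) and lower in 11 of 12 in females (median -1.28, background 2.81% of genes lower).

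**Figure D5:**
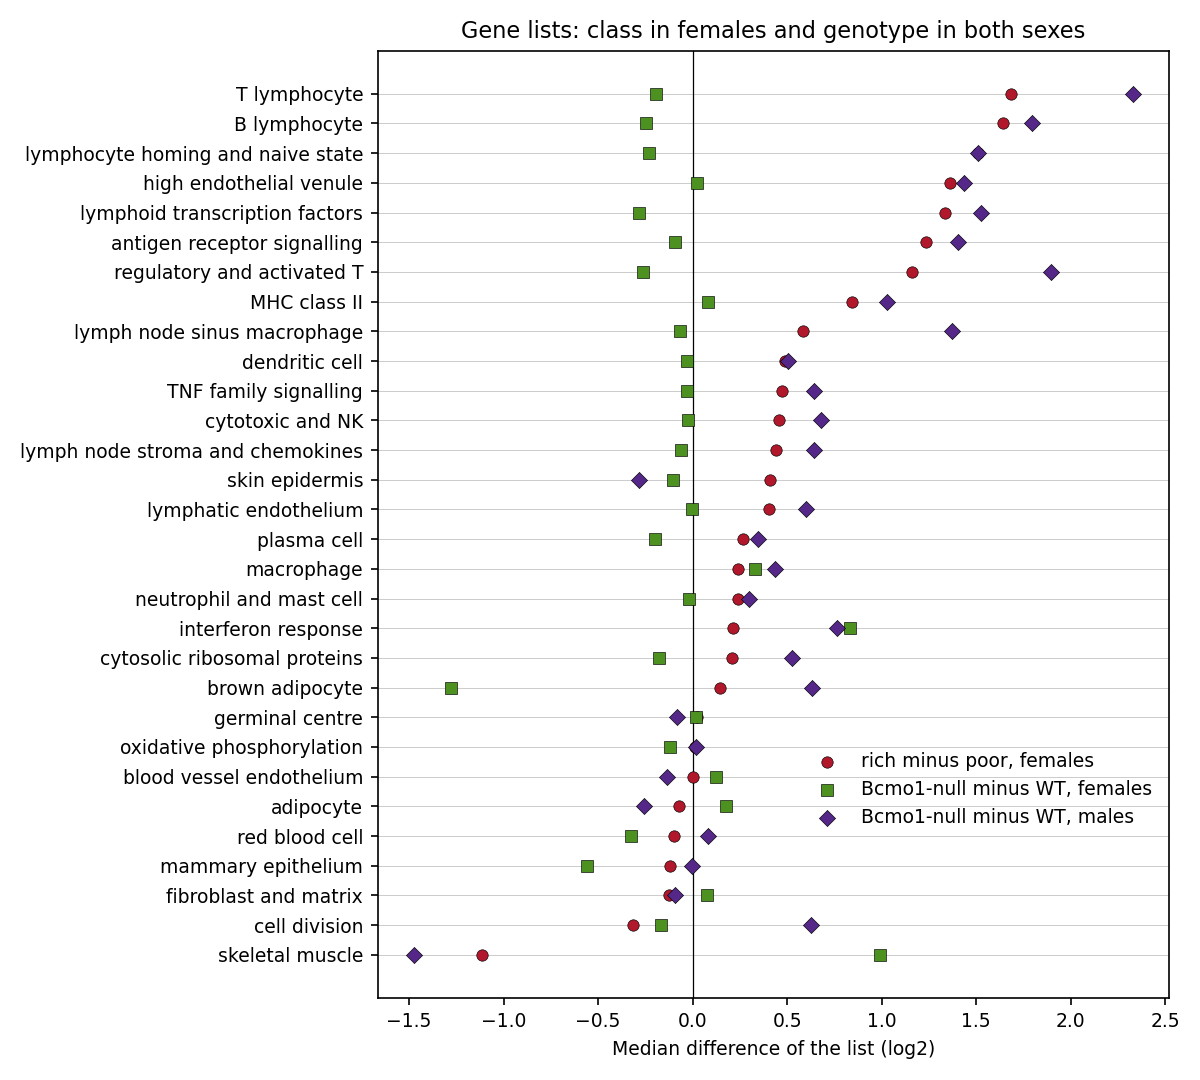
Median difference (log2) of each gene list between rich and poor female pads (circles, fitted with the groups) and between Bcmo1-null and WT mice without the class in females (squares) and males (diamonds); each mark is the median of 1 list. The B and T lymphocyte lists lie at 1.79 and 2.33 between genotypes in males and at -0.25 and -0.19 in females, whereas the interferon response list lies at 0.76 and 0.83.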

How the data were processed

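iWAT RNA of 47 mice had been hybridised to 2-colour arrays, 1 mouse (Cy5) against a common pool (Cy3) on each, on 12 slides. The deposited scanner files hold the intensity of each spot in both channels, and per the file headers the authors' software also gave a log10 ratio of Cy5 over Cy3 per spot, with which the deposited series table was identical in 100% of features. The rule used that log10 ratio. For all other values the median intensity of each spot was corrected by normexp with an offset of 50, normalized within arrays by loess with control spots at weight 0, and expressed as log2 ratios. 10902 spots flagged as outliers were left out, and spots of a probe were averaged. Of 41174 probes, 20811 (females) and 20437 (males) had mean Cy5 and Cy3 signals of at least 2 times the mean background and were kept. Where a gene had several probes, the brightest kept probe stands for it. Array names were updated through RefSeq accessions (24375 probes matched, 34882 probes named), and probe positions are those of the file annotation (mm8).

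Differences were fitted with limma 3.58.1 in R 4.3.3 on the 4 genotype and diet groups with the class added, with Benjamini-Hochberg adjustment at 0.05 over all kept probes, or an unadjusted p of 0.01 for the diet comparisons. In data simulated on the female rich and poor comparison, 95 of 100 probes changed by 1 on the log2 scale and 75 of 100 changed by 0.5 were found, with 8 of 20611 unchanged probes called. Groups come from the labels of the samples. Each array is a separate mouse, and the number of arrays limits the precision. The genes named are those with the largest differences among the genes called, list members and the genes of the diet comparison, and the members and lists were chosen with earlier results of these data known. Some members are not reported here. Replicate numbers of the labels were not used to pair mice, since the labels tie no number to a litter, cage or day. Alternatives changed the background correction, normalization, channel, dim probe filter, class, covariates and test, took slide or replicate number as a block, or left out each array.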

Additional observations from a re-analysis of the deposited data

Results flagged for a closer look

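In 26 of 181 groups of values examined the highest or lowest array stood far from the rest by Dixon's criterion, which chance alone meets in about 1 in 20 groups. For the rule value (log10) these were WT female BC diet replicate 5, the only poor pad of its group, at -0.636, WT male BC diet replicate 3, highest of its group at -0.376, Bcmo1-null male control replicate 3, highest at 0.315, and Bcmo1-null male BC diet replicate 1, lowest at -0.974.

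Among the 10 poor female pads, WT control replicate 2 was the lowest for genes of macrophages and antigen presentation, with log2 ratios of -2.61 for H2-Aa, -1.96 for H2-Ab1, -1.69 for H2-DMa, -1.64 for Cd68, -2.0 for Adgre1, -1.64 for Csf1r and -1.24 for Mrc1, and also for Klf2 (-3.61) and the skin keratin Krt10 (-1.11). WT BC diet replicate 5 was the highest for the mitotic genes Cdk1 (2.14) and Ccnb1 (2.68) and for Bdnf (2.28), and the lowest for the endothelial genes S1pr1 (-1.06), Cdh5 (-1.04) and Flt1 (-1.34). Bcmo1-null control replicate 1 was the lowest for the epithelial genes Krt8 (-2.93), Krt18 (-2.76) and Cdh1 (-1.78) and for Gata3 (-2.06). Bcmo1-null BC diet replicate 4, the poor pad nearest the threshold, was the highest for Fut7 (0.40) and the lowest for Pttg1 (-1.05), and WT control replicate 4 was the highest for the haemoglobin gene Hba-a1 (0.76).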

How the results depend on the processing

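Limits are few arrays, classes drawn from the arrays themselves, dim probes in poor pads, and a class nearly tied to genotype in males. The count of probes that separated rich from poor females (1767) was 730 without normalization, 2841 with the rule value as a numeric covariate and 904 with the class from other lymphocyte genes, and 1198 to 2450 under the other alternatives. The share of higher calls was 75.2%, but 61.2% on the processed signals and 97.8% without normalization. Leaving out each array gave 1435 to 2060. Without the groups, the methods' t-test gave 4729 probes at an unadjusted p under 0.05, the threshold of the methods, and 1915 after Benjamini-Hochberg adjustment. The 4-group Fisher's exact test stayed above 0.05 with each other class, with p from 0.0556 (other lymphocyte genes) to 0.931. Single genes were followed for the rule spots, the largest differences, the first and the extreme members of each list, and the diet genes. Other list members were not followed. Of these values under alternatives, 7179 stayed the same, 152 lost and 75 gained the call, 6 moved, and 0 reversed. A call in both fits with the same direction counted as the same. Without a call in either fit, a shift under the residual standard deviation counted as the same, whatever its sign, and a larger one as moved. For the numeric rule value, no call in either fit always counted as the same. Reversed meant a call in either fit with the direction changed.

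Diet counts in WT females depended most on the processing. The adjusted count without the class (232) was 0 without background correction, on the processed or deposited signals, without normalization, with slide as a block, by the methods' t-test and in rich pads alone, 1 in the Cy5 channel, 36 without the dim filter and 1322 with median centring. With the class (0) it was 826 with median centring and 96 with the class split at the widest gap, which was chosen after seeing the data. The counts at an unadjusted p under 0.01 were 600 without normalization and 390 in rich pads alone without the class, and 498 without normalization with it. Leaving out each array gave 1198 to 2733 without and 851 to 2409 with the class at this level, and 0 to 1644 and 0 to 796 after adjustment, each highest without WT control replicate 3. By the methods' t-test 1351 WT probes were below 0.01 and 4119 below 0.05, against 514 below 0.05 in Bcmo1-null females. In Bcmo1-null females the counts without the class (77) were 46 without normalization, 141 in Cy5, 165 without the dim filter, 140 with slide, 45 by the methods' t-test and 419 in rich pads alone, and 30 to 262 leaving out each array. With the class (88) they were 51, 167, 185 and 150 under the first 4 of these, and 40 to 248 leaving out each array.

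The replicate number as a block raised the Bcmo1-null diet counts to 187 without and 201 with the class, lowered the class by genotype interaction to 137 and left 0 of the 905 male probes. Pairs of arrays with the same number correlated from -0.456 to 0.610 (median 0.143, 36 pairs), those with other numbers from -0.599 to 0.589 (median -0.00835, 180 pairs), and 10 of 24 arrays correlated best with an array of their own number. The labels tie the numbers to no litter or day, so they were not used to pair mice. The correlations cannot show whether a number marks a batch, since numbers and slides partly coincide. The 4 female arrays with number 1 all lay on slide 1, where 3 of the 4 female pads were poor. The class by genotype count (259) was also 120 with median centring and 134 with slide, and ran from 159 to 468 leaving out each array. The class by diet count (947) ran from 393 without WT BC diet replicate 5 to 1563 without Bcmo1-null BC diet replicate 2, where 293 probes passed the adjustment.

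In males the rich minus poor count (905) was 1676 without background correction, 1667 and 1670 on the processed and deposited signals, 404 with median centring, 1567 in Cy5, 537 without the dim filter and 0 with slide, and 2 to 1259 leaving out each array. The genotype count without the class (9510) was 4388 with median centring, 5046 without normalization and 8794 to 9819 leaving out each array. With the class (386) it was 592 without background correction, 41 with median centring, 196 without normalization and 50 to 698 leaving out each array. These male genotype comparisons, and the fits without the 2 muscle-rich arrays or the chromosome 5 spot, were chosen after seeing the data. The causes of these shifts were not tested.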
